A study of Mus musculus with 4 samples.

Results

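Lipid storage and adipokine genes are described here as 10 genes: Lpl, Cd36, Plin1, Plin4, Fabp4, Cidec, Adipoq, Lipe, Pnpla2 and Dgat2. They were chosen by name. Every array probe whose gene name, or current symbol through its transcript accession, is one of the 10 was taken, which gave 18 probes for 10 of 10 genes, among 33709 probes and 23509 genes tested. In the authors' deposited values each of the 18 probes was above the estimated detection floor on all 4 arrays, as were 30798 of all 41174 probes. By the flags of the scanner files, given below, some were not well above background on every array. RNA came from OP9, a mouse stromal cell line that readily forms adipocytes and serves as a feeder layer for blood progenitors. The Wnt3A samples (2 arrays) carried the retroviral vector LZRS-IRES-GFP with the gene for Wnt3A, a secreted Wnt ligand, and the Control samples (2 arrays) carried the same vector without it. Both groups thus share the vector with its GFP marker and the serum-containing medium. The labels do not say whether the samples of a group were separate cultures, whether the carrying cells were sorted, or how long they grew, so the p-values measure only the spread between these samples.

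Adipocytes store fatty acids as triglyceride in lipid droplets. Lipoprotein lipase and the membrane protein CD36 bring fatty acids to and into the cell, FABP4 carries them in the cytosol, and DGAT2 joins the last fatty acid onto the triglyceride. Perilipins and CIDEC coat and enlarge the droplets, ATGL (gene Pnpla2) and hormone-sensitive lipase (gene Lipe) release the fatty acids again, and adiponectin (gene Adipoq) is a hormone that fat cells secrete. Canonical Wnt signalling is known to restrain adipocyte formation, and PPAR gamma and C/EBP alpha are known to drive many of these genes.

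The measured quantity is the brightness of 60-base oligonucleotide probes, and those of 5 genes are printed below because the values that follow are readings of these molecules. They are given as the array annotation lists them, in lower case with nothing marked. The second Fabp4 probe and the Lipe probe each cover a stretch of the genome longer than themselves (730 and 2254 bases), so they lie across an exon junction. Positions are on mouse build mm8, as the files give them.
Lpl probe A_52_P257812, chr8:71830140-71830199, plus strand: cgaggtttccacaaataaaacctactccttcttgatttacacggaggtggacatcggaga
Fabp4 probe A_52_P564544, chr3:10190974-10191033, minus strand: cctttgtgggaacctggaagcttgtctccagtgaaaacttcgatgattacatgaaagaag
Fabp4 probe A_51_P336830, chr3:10187065-10187794, minus strand: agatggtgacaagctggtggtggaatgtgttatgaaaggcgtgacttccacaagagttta
Adipoq probe A_51_P458451, chr16:23072837-23072896, plus strand: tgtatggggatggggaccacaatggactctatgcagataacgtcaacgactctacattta
Lipe probe A_51_P435366, chr7:25089715-25091968, minus strand: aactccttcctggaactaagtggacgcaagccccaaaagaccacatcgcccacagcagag
Pnpla2 probe A_52_P681771, chr7:141310521-141310580, plus strand: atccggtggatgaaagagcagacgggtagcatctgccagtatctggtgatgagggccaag

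The study holds 2 sets of values for the same 4 samples, and they go against each other for these genes. The main source is the authors' deposited table of linear intensities, in which the median of each array is 1, and an intensity below is on that scale. Pearson's r between arrays over all probes tested was 0.936 within Wnt3A and 0.931 within Control in the table, and 0.876 to 0.885 between the groups. The scanner files gave 0.680 within Wnt3A, 0.668 within Control and 0.585 to 0.799 between the groups. Those values are over another set, the 28759 probes well above background by the scanner flags on both arrays of a group. The file of Control replicate 1 was faint, with 41.8% of spots well above background against 71.6% to 85.7% in the other 3. For the 245 probes with more than 4 spots, repeated spots lay close together, with a median SD of their log2 values of 0.0820 to 0.101 by table column. This checks the joining of table rows to probes for those probes only, and not which sample a column holds. By Spearman's rho over spots, every table column was closest to the scanner file of Control replicate 2 (0.826 to 0.845, against 0.610 to 0.762 with the other 3 files). The sources also differed within an array. The ratio of Fabp4 probe A_51_P336830 to A_52_P564544 was 1.72 to 3.23 over the table columns and 72.8 to 349 over the scanner files. For Lpl probe A_51_P259296 over A_52_P257812 it was 2.475 to 4.90 and 21.0 to 44.6. The fainter probe of each pair was not well above background in every scanner file. Why the sources differ was not tested. The inserted gene gave no clear check of the labels: the single Wnt3a probe, which starts at base 2599 of its transcript, read 0.0112 and 0.123 in Wnt3A and 0.0151 and 0.0134 in Control, above the floor only in Wnt3A replicate 2. In the scanner files the same probe was well above background in Wnt3A replicate 1 and Control replicate 2, and not in Wnt3A replicate 2 or Control replicate 1. Of 11 stromal markers, 10 were above the floor on all 4 arrays, as were 30798 of all 41174 probes. All 10 macrophage and blood markers and all 4 epithelial markers were too, so this count does not tell cell types apart. The stromal marker Lepr was above the floor on 1 array.

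In the table all 10 genes were lower in Wnt3A, each by its brightest probe, with a median log2 difference of -2.81 (7.03-fold), where the median over all genes tested was -0.01 and 50.8% of genes were lower. After limma with Benjamini-Hochberg adjustment over all probes, 3 of 10 genes fell at an adjusted p under 0.05 (Lpl, Cd36 and Plin4) and 0 rose. Of all genes tested, 0.242% fell and 0.408% rose at that threshold. By probe, 3 of 18 fell, against 0.255% of all probes. At an unadjusted p under 0.05, 8 of 10 genes were lower and 0 higher, against 6.34% and 6.43% of all genes. The 2 groups did not overlap for 9 of 10 genes, all lower in Wnt3A, where 23.5% of all genes were lower and 21.7% higher without overlap, and 6 of 10 were at least 4-fold lower, against 2.91% of all genes. Leaving out any 1 of the 4 arrays leaves a group of 1 array, so only the size of the difference is given. The median of the 10 genes then ran from -2.92 to -2.27, against -0.07 to 0.04 over all genes. The genes were listed with results of these arrays known, so these shares describe the list and do not test it. In bulk RNA, fewer cells that express such a gene and less of its RNA per cell cannot be told apart.

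**Figure D1:**
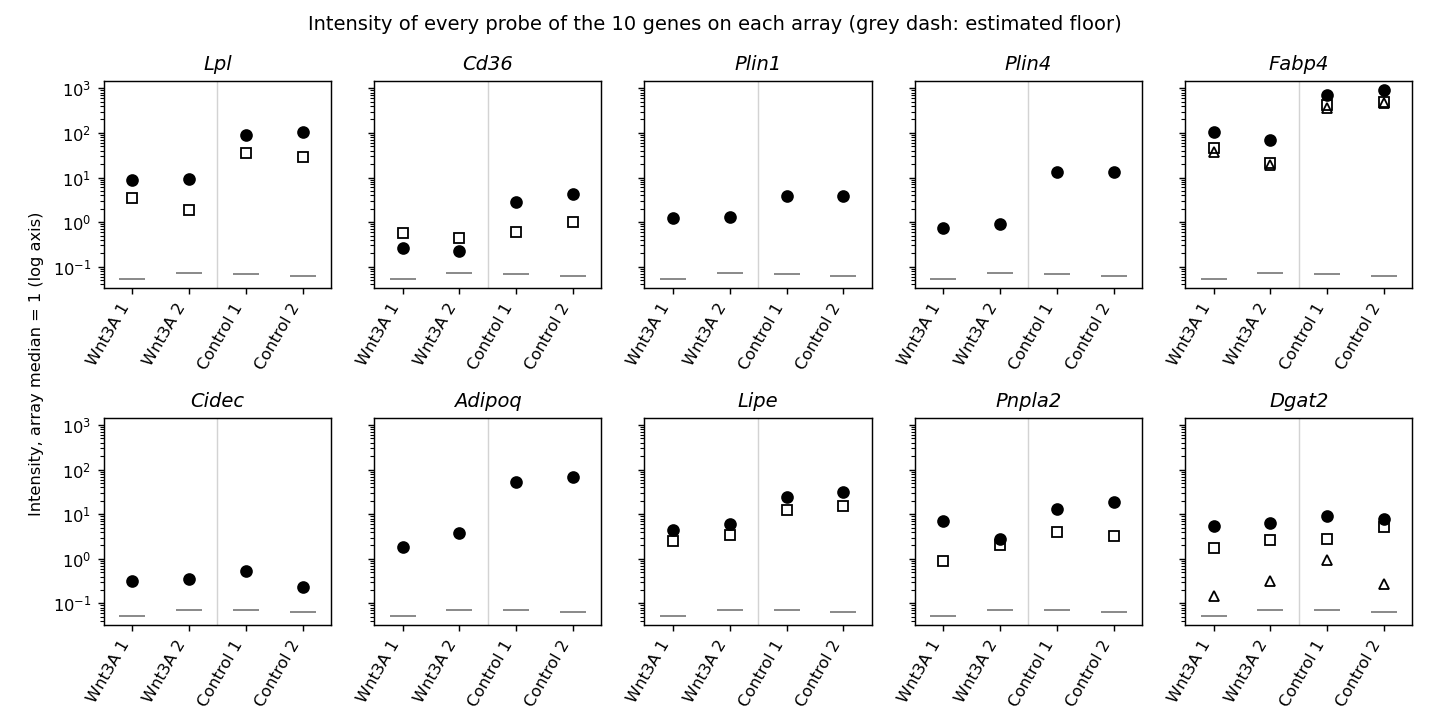
Intensity of the 18 probes on each array (array median = 1, log axis), with 1 panel per gene, the Wnt3A arrays left of the Control arrays, a marker for each probe (filled for the brightest) and a grey dash at the estimated floor. Every point lies above the floor, and the brightest probe of every gene but Cidec is lower on both Wnt3A arrays than on both Control arrays.

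Among the genes that bring fatty acids into the cell, Lpl fell. Its brighter probe (A_51_P259296, chr8:71835357-71835416 on mm8) read 8.59 and 9.38 in Wnt3A and 89.6 and 104.6 in Control. The groups lay far apart and the 2 arrays within each were close. The log2 change was -3.42 ± 0.30 (SE, 2 arrays per group, adjusted p 0.0441 in limma), a 10.7-fold decrease. The other Lpl probe, printed above, read 3.46 and 1.92 in Wnt3A and 36.2 and 28.6 in Control. Its log2 difference was of like size (-3.63 ± 0.45) with a wider spread, and it did not pass (adjusted p 0.0753 in limma). Over 12 alternatives run on the table, the adjusted p of Lpl ran from 0.0104 to 0.204 in limma and passed in 5, while its log2 change stayed between -3.53 and -3.36.

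Cd36, the fatty acid translocase, had 2 probes that gave unlike answers. The brighter probe (A_51_P375138, chr5:17295116-17297548, a span of 2433 bases that crosses an exon junction) read 0.257 and 0.225 in Wnt3A and 2.79 and 4.34 in Control. Its log2 change was -3.84 ± 0.36 (SE, 2 arrays per group, adjusted p 0.0459 in limma), 14.4-fold lower. The other probe (A_51_P375146, chr5:17294606-17294665), which starts 3' of it in the transcript, read 0.571 and 0.451 in Wnt3A and 0.587 and 1.001 in Control. Its groups nearly met, and its log2 difference of -0.58 ± 0.39 did not pass (adjusted p 0.615 in limma). Within an array, the ratio of the first probe to the second was 0.450 and 0.499 in Wnt3A and 4.75 and 4.34 in Control, so the 2 probes changed unequally. With the mean of both probes the log2 difference was -2.21 and the adjusted p 0.0998 in limma. Over the table alternatives with all 4 arrays, Cd36 passed in 3 (adjusted p 0.0341 to 0.125 in limma).

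Fabp4, the cytosolic carrier of fatty acids, was read by 3 probes. The brightest, A_51_P336830, read 104.0 and 69.5 in Wnt3A and 723 and 895 in Control. A_52_P564544, at the 5' end of the transcript, read 46.5 and 21.5 in Wnt3A and 421 and 501 in Control. A_51_P336833 read 38.3 and 19.2 in Wnt3A and 358 and 475 in Control. On all 3 probes Wnt3A replicate 2 was the lowest array and no Wnt3A value came near a Control value. The log2 differences were -3.23 ± 0.37, -3.85 ± 0.49 and -3.91 ± 0.47 (SE, 2 arrays per group), and none passed over all probes (adjusted p 0.0670, 0.0793 and 0.0726 in limma). The brightest probe passed in 1 of the table alternatives with all 4 arrays, with an adjusted p from 0.0161 to 0.143 in limma.

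Of the droplet coat genes, Plin4 fell, and Plin1 and Cidec did not pass. Plin4 (chr17:55693925-55693984), a perilipin first found in adipocytes, read 0.748 and 0.887 in Wnt3A and 13.4 and 13.5 in Control. Both groups were tight, and the log2 change was -4.04 ± 0.31 (SE, 2 arrays per group, adjusted p 0.0338 in limma), 16.4-fold lower. Of the table alternatives with all 4 arrays, 6 called it (adjusted p 0.0195 to 0.109 in limma). Plin1 (chr7:79594739-79594798), the perilipin that guards the droplet against lipolysis, read 1.24 and 1.29 in Wnt3A and 3.95 and 3.82 in Control. Its groups did not overlap either, but its log2 difference was smaller, -1.61 ± 0.30, and did not pass (adjusted p 0.144 in limma). It passed in 0 of the table alternatives with all 4 arrays. Cidec (chr6:113390476-113390535), which enlarges droplets by fusing them, read 0.313 and 0.349 in Wnt3A and 0.537 and 0.237 in Control. The Wnt3A values lay between the Control values, and the log2 difference was -0.10 ± 0.53 (adjusted p 0.965 in limma), with a reversed sign without Control replicate 1 (0.54).

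Adipoq, the adiponectin gene, had the largest difference of the 10. Its probe read 1.82 and 3.71 in Wnt3A and 52.9 and 67.7 in Control. The groups were far apart, and Wnt3A replicate 2 was well above replicate 1. The log2 difference was -4.51 ± 0.46 (SE, 2 arrays per group), 22.8-fold lower, and it narrowly missed the threshold (adjusted p 0.0546 in limma). Over the table alternatives with all 4 arrays, the adjusted p of Adipoq ran from 0.0233 to 0.109 in limma. The 3 that called it were a floor 2 times as high, trend and robust moderation, and averaged probes.

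By the brightest probe, the lipases of stored triglyceride differed less than Adipoq, Plin4, Cd36, Lpl and Fabp4 and more than Plin1, Dgat2 and Cidec. The brighter Lipe probe (A_51_P435366) read 4.49 and 6.18 in Wnt3A and 24.3 and 32.1 in Control, and the other (A_51_P435363, chr7:25089569-25089628) read 2.56 and 3.36 in Wnt3A and 12.3 and 15.3 in Control. Both probes separated the groups, with log2 differences of -2.40 ± 0.34 and -2.22 ± 0.33, and neither passed (adjusted p 0.0975 and 0.101 in limma). A further probe, named 4933403G17Rik in the annotation, an older name of Lipe, falls outside the rule. It read 0.0218 and 0.0164 in Wnt3A and 0.203 and 0.0560 in Control and was above the floor on 1 array.

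For Pnpla2, the first enzyme of triglyceride breakdown, A_52_P681771 read 7.06 and 2.81 in Wnt3A and 13.0 and 18.6 in Control, and A_51_P197213 (chr7:141311351-141311410) read 0.895 and 2.06 in Wnt3A and 4.07 and 3.31 in Control. The probes disagreed on which Wnt3A array was the lower, replicate 2 for the first and replicate 1 for the second. Their log2 differences were -1.79 ± 0.57 and -1.42 ± 0.52 (adjusted p 0.314 and 0.363 in limma). The first depended on which array was used, at -2.47 without Wnt3A replicate 1 and -1.11 without Wnt3A replicate 2.

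Dgat2, which makes the triglyceride, differed least after Cidec. Its brightest probe (A_52_P359739, chr7:99029734-99029793) read 5.34 and 6.31 in Wnt3A and 9.01 and 7.79 in Control, a log2 difference of -0.52 ± 0.32 (adjusted p 0.584 in limma). The probe A_51_P396003 read 1.76 and 2.60 in Wnt3A and 2.76 and 5.29 in Control, and the probe A_52_P592909 read 0.145 and 0.324 in Wnt3A and 0.924 and 0.267 in Control. The groups overlapped on the last of these. Their log2 differences were -0.83 ± 0.45 and -1.19 ± 0.81, and neither passed (adjusted p 0.530 and 0.620 in limma).

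**Figure D2:**
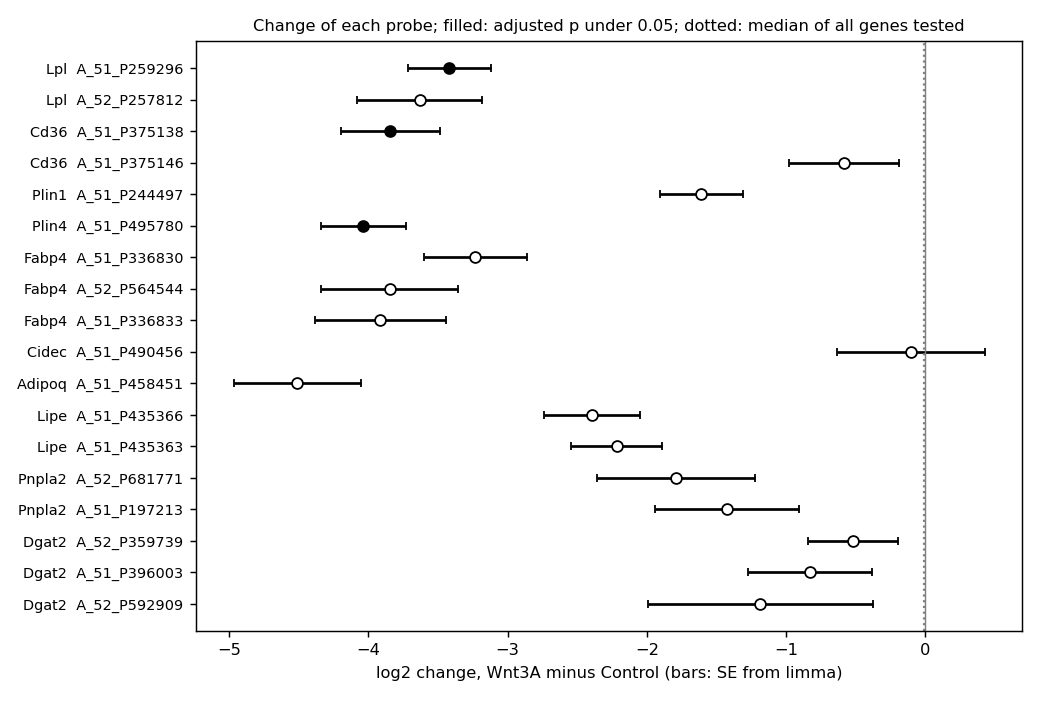
The log2 change (Wnt3A minus Control) of each of the 18 probes in the deposited table, with the SE from limma as bars and filled points at an adjusted p under 0.05. All 18 points lie below 0, from -4.51 (Adipoq) to -0.10 (Cidec), 3 are filled (Lpl, Cd36 and Plin4), and the dotted line marks the median of all genes tested (-0.01).

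The scanner files did not show these differences. With log2 of the processed signal set against each array's 75th percentile, limma called 0 of the 10 genes (0 also at an unadjusted p under 0.05, and 0 with normexp and quantile normalization), where 0.00943% of all genes fell. By the same probes 9 of 10 genes were lower in Wnt3A, Cd36 was higher (0.37), and the median over the 17 probes kept was -0.28, with an SE of 1.42 on each. There 0 of the 10 genes separated the groups (and 0 of the 18 probes), against 8.73% of all genes lower and 10.5% higher in Wnt3A. At such shares a count of 0 of 10 says little about these genes. By the scanner flags, Lpl probe A_52_P257812 was well above background on 2 arrays. Cd36 probe A_51_P375146, Fabp4 probes A_52_P564544 and A_51_P336833, the Cidec probe and Dgat2 probe A_52_P592909 were so on 3. The other probes were so on all 4. Lpl probe A_51_P259296 had scanner intensities of 1390.0 and 503 in Wnt3A and 53.5 and 949 in Control, Plin4 340 and 186 in Wnt3A and 26.7 and 223 in Control, and Adipoq 1456 and 455 in Wnt3A and 73.9 and 890 in Control. On this unscaled reading the faint array of Control replicate 1 was lowest for all 3 genes, and the other Control array lay between the Wnt3A arrays. Without Control replicate 1, a setting chosen after the data were seen, 8 of the 10 differences were above 0, from 0.02 (Fabp4) to 1.72 (Cd36). Only 1 Control array then remained. All of these values were smaller than the SE of that fit (2.135), which rests on the spread between the Wnt3A arrays. With 2 arrays per group the smallest two-sided exact permutation p is 0.333, so each call rests on the spread that limma shares over all probes.

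**Figure D3:**
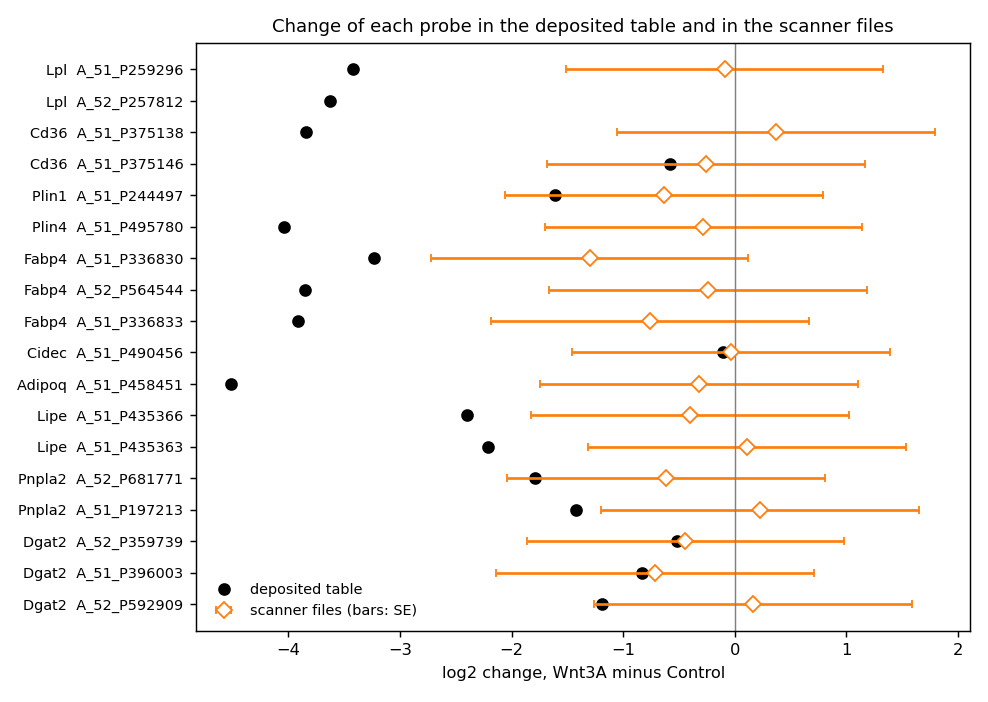
The log2 change (Wnt3A minus Control) of each probe in the deposited table (black) and in the scanner files (orange, bars SE). The table's changes reach -4.51, while those of the scanner files lie between -1.30 and 0.37 with an SE of 1.42, and Lpl probe A_52_P257812 has no scanner value because it was not well above background on both arrays of either group.

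Macrophages also make Lpl, Cd36 and Fabp4, and endothelial cells make Cd36 and Fabp4, so markers of other cells were read in the table. The 10 macrophage and blood markers had summed intensities of 11.5 and 12.6 in Wnt3A and 17.2 and 13.8 in Control, all 10 were above the floor on all 4 arrays, and 0 rose and 0 fell, with a median log2 difference of -0.07. Among them Ptprc (CD45) read 0.115 and 0.142 in Wnt3A and 0.190 and 0.112 in Control, Cd68 read 1.69 and 2.34 in Wnt3A and 6.11 and 4.49 in Control, and Aif1 read 0.930 and 1.42 in Wnt3A and 3.09 and 2.48 in Control. Cd68 and Aif1 were thus lower on both Wnt3A arrays without passing (log2 differences -1.38 and -1.26, adjusted p 0.257 and 0.299 in limma). Lyz2, at 3.07 and 1.07 in Wnt3A and 0.575 and 0.990 in Control, and Csf1r, at 0.796 and 1.27 in Wnt3A and 0.738 and 0.479 in Control, were higher on both without passing (1.27 and 0.77, adjusted p 0.505 and 0.554 in limma). The macrophage and blood markers thus went both ways, and their part in the results for Lpl, Cd36 and Fabp4 was not tested. Of 6 endothelial markers, Kdr and Tek were above the floor on no array and 2 were above it on all 4, with summed intensities of 1.22 and 0.884 in Wnt3A and 1.31 and 2.22 in Control. The 4 epithelial markers were also above the floor on all 4 arrays, with summed intensities of 7.24 and 8.02 in Wnt3A and 9.71 and 7.04 in Control. The 11 stromal markers summed to 1314 and 1445 in Wnt3A and 389 and 600 in Control, but the median log2 difference of the 10 tested was -0.19. Among them Kitl fell, while Pdgfra, which read 13.1 and 8.99 in Wnt3A and 42.1 and 64.1 in Control, did not pass (adjusted p 0.133 in limma). Most of the stromal sum was collagen, with Col1a1 at 671 and 736 in Wnt3A and 158 and 256 in Control. Col3a1, at 235.5 and 239.2 in Wnt3A and 7.87 and 19.6 in Control, differed by 4.27 without passing (adjusted p 0.0721 in limma). The part of collagen in these results was not tested.

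Other genes of the same pathway were read from 6 lists of 56 genes, of which 53 were tested. In limma 0 of them rose and 0 fell at an adjusted p under 0.05, against 0.408% and 0.242% of all genes, and 3 were higher and 10 lower at an unadjusted p under 0.05, where 6.43% of all genes were higher and 6.34% lower. The median log2 difference was -0.47, with 16 higher and 37 lower. The lists were written with earlier results of these arrays known. From each list the genes with the largest differences above the floor on all 4 arrays are given. Each gene is counted by its brightest probe, and the probes differed in sign for Slc27a1, Slc27a4, Aqp7, Bscl2, Mgll, Pde3b and Adipor1, some of them named here after their values were seen.

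In the list of lipid uptake and activation, 5 of 10 genes were higher and 5 lower, with a median of -0.07. Vldlr, a receptor for triglyceride-rich lipoproteins, was among the genes with higher values in Wnt3A. It read 2.19 and 2.38 in Wnt3A and 0.201 and 0.115 in Control, a log2 difference of 3.92 ± 0.43 (adjusted p 0.0632 in limma), and its other probe gave 4.32. Acsl1, which activates fatty acids with coenzyme A, read 26.6 and 14.6 in Wnt3A and 41.4 and 40.7 in Control (-1.05 ± 0.43, adjusted p 0.408), and Slc27a1, a fatty acid transporter, differed by 0.98 ± 0.59 with its other probe at -1.77.

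Of 7 triglyceride synthesis genes 2 were higher and 5 lower (median -0.73). One of those higher, the glycerol channel gene Aqp7, rests on the choice of probe, since its brightest probe gave 0.19 and its other probe -4.69. Gpd1, which supplies glycerol phosphate, read 0.429 and 0.398 in Wnt3A and 1.79 and 5.20 in Control (log2 difference -2.87 ± 0.57, adjusted p 0.163 in limma), and its other probe gave -5.62. Dgat1, which carries out the same step as Dgat2, read 13.7 and 19.2 in Wnt3A and 23.5 and 32.1 in Control (-0.75 ± 0.35, adjusted p 0.471). Mogat1, which makes diglyceride, differed by 1.15 ± 1.43 and its groups overlapped.

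Of 10 genes of droplet coat and growth, 2 were higher and 8 lower (median -0.45). Plin2, a perilipin found in many cell types, read 8.74 and 3.47 in Wnt3A and 48.1 and 50.2 in Control, a log2 difference of -3.15 ± 0.55 that did not pass (adjusted p 0.133 in limma). Cavin1, a protein of caveolae, read 21.1 and 29.7 in Wnt3A and 65.9 and 109.8 in Control (-1.76 ± 0.40, adjusted p 0.196), and its 4 probes ranged from -1.76 to -1.47. Fitm2, which helps to form droplets, differed by -1.01 ± 0.39 (adjusted p 0.385).

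In the lipolysis list 4 of 8 genes were higher and 4 lower, with a median of 0.04. Prkar2b, a regulatory subunit of protein kinase A, read 4.89 and 8.17 in Wnt3A and 15.9 and 18.7 in Control (log2 difference -1.43 ± 0.38, adjusted p 0.249 in limma). G0s2, an inhibitor of ATGL, differed by -1.27 ± 0.73 and its groups overlapped after scaling. Mgll, the monoglyceride lipase, differed by 0.99 ± 0.64, with another probe at -0.19.

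Of 8 adipokines and receptors tested, 1 was higher and 7 lower (median -1.09). That median lies between Cfd and Rbp4, named here after their values were seen, and for both 1 Control array set the difference. Cfd read 0.432 and 0.580 in Wnt3A and 2.505 and 0.487 in Control. Rbp4 read 0.193 and 0.268 in Wnt3A and 2.74 and 0.0823 in Control. Rarres2, which encodes the adipokine chemerin, read 2.50 and 0.879 in Wnt3A and 33.0 and 39.0 in Control, a log2 difference of -4.59 ± 0.61 that did not pass (adjusted p 0.0824 in limma), and its other probe gave -2.56. Adipor2, a receptor for adiponectin, read 9.16 and 13.6 in Wnt3A and 66.5 and 68.9 in Control (-2.59 ± 0.35, adjusted p 0.0858), and its probes ranged from -2.59 to -1.08. Retn, the resistin gene, read 0.0544 and 0.0968 in Wnt3A and 0.0791 and 3.07 in Control, so 1 Control array set its difference of -2.75. Lep and Lepr did not enter the test.

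Among the regulators, 2 of 10 genes were higher and 8 lower, with a median of -0.22. Pparg read 3.83 and 2.47 in Wnt3A and 17.1 and 27.0 in Control (log2 difference -2.79 ± 0.42, adjusted p 0.104 in limma), and Cebpa read 2.79 and 1.26 in Wnt3A and 9.24 and 14.3 in Control (-2.61 ± 0.53, adjusted p 0.167). Irs1, an adaptor of the insulin receptor, was on the other side, at 10.6 and 11.7 in Wnt3A and 2.47 and 0.981 in Control (2.85 ± 0.57, adjusted p 0.165).

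**Figure D4:**
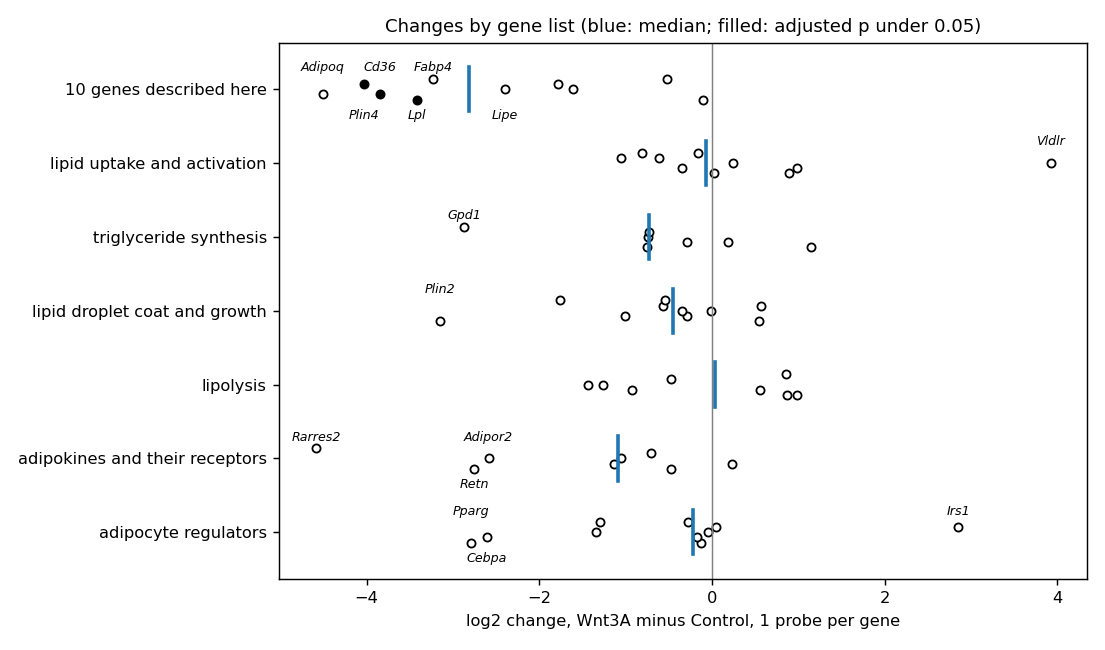
The log2 change (Wnt3A minus Control) of the 10 genes and of the genes of 6 related lists in the deposited table, 1 probe per gene, with the median of each list in blue and filled points at an adjusted p under 0.05. The median is -2.81 for the 10 genes and between -1.09 and 0.04 for the other lists, and Vldlr and Irs1 stand on the side of higher values in Wnt3A. The -1.09, of adipokines and receptors, lies between genes whose difference 1 Control array set.

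Because most of the 10 genes were lower together, the 250 bases before the gene start were read for 7 of them (9 windows, build GRCm38.p6). Lpl, Fabp4 and Dgat2 had no window in the set used. Both strands were searched for a PPAR response element (AGGNCA, any base, AGGNCA), for TTGCNNAA (C/EBP) and for CTTTGA (TCF/LEF), where N is any base. The PPAR motif was in 0 of 9 windows, against 0.338% of all 32851 windows, and the TCF/LEF motif in 0 of 9, against 13.8%. The C/EBP motif was in 2 of 9, against 9.56%. It occurred 187 and 58 bases before the start of Plin1 (its first base) and 198 bases before 1 of 2 starts of Cidec. It was in no other window, that of Plin4 included. The windows of Plin1, of this start of Cidec and of Plin4 are printed with the motif in capitals. A match describes letters only.
Plin1, chr7:79732777-79733026, minus strand: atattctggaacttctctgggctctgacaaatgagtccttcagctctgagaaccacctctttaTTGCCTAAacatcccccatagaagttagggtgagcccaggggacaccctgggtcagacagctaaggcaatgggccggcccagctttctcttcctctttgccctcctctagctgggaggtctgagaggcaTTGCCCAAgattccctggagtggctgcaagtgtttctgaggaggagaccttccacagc
Cidec, chr6:113434765-113435014, minus strand: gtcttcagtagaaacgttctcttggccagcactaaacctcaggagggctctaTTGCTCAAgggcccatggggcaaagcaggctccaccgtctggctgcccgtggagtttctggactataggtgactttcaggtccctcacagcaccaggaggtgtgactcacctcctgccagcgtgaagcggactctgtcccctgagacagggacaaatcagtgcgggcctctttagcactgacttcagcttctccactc
Plin4, chr17:56109783-56110032, minus strand: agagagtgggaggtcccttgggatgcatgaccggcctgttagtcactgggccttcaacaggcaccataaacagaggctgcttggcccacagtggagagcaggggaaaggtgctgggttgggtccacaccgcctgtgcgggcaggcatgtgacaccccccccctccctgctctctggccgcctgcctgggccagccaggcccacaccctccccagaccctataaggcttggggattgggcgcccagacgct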

How the data were processed

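RNA of OP9 cells was measured on 4 one-colour Agilent arrays (2 Wnt3A, 2 Control), all on 1 slide. The main values are the linear intensity values in the authors' deposited table, whose median is 1 in each column; how they were scaled is not given in the sources used here. The scanner files hold intensity values and 0 or 1 flags from Agilent Feature Extraction 10.5.1.1, per the file headers, with background subtracted and no scaling between arrays. Table rows were joined to probes by feature number.

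From the table, spots of a probe were averaged as log2 intensity minus the array's 75th percentile. The floor was 4.94 times the 1st percentile of a column. That factor came from the scanner files, as the median ratio of the lowest well-above-background signal to the 1st percentile. A probe was tested where Wnt3A, Control or both exceeded the floor on each of their 2 arrays. Wnt3A was compared with Control by limma 3.58.1 in R 4.3.3 (lmFit, eBayes), with Benjamini-Hochberg adjustment over all 33709 probes and a threshold of 0.05; a gene was read by its brightest kept probe. The fit was tested on simulated data. The 10 genes and all gene lists were chosen with earlier results of these data known. From each list, genes past the threshold and up to 3 with the largest log2 change among those above the floor on all 4 arrays are named. Alternatives varied the source, scaling, filter, moderation, probe rule, replicate number and replicates. Array number, at 2 per group, limits the precision.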

Additional observations from a re-analysis of the deposited data

How the results depend on the processing

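In the table, 153 of all genes passed in limma, with 3 of the 10 genes and 3 of their 18 probes. Scanner values gave 2 genes with the 75th percentile and 0 with normexp and quantile normalization, with 0 of the 10 genes and 0 probes in both; unadjusted p under 0.05 gave 0 of the 10. There Cd36 reversed (0.37, and 0.26 with normexp), as did Cidec with normexp (0.064). Scanner values without Control replicate 1, added after the data were seen, left 1 Control array. The difference was then above 0 for Lpl (0.089), Cd36 (1.72), Plin4 (0.44), Fabp4 (0.018), Cidec (0.99), Adipoq (0.14), Lipe (0.038) and Dgat2 (0.53). All of these were smaller than the SE of that fit (2.135), which rests on the spread between the Wnt3A arrays. The cause of the differences between the sources was not tested.

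Within the table, no filter gave 36 genes, 0 of the 10 and 0 probes, and requiring all 4 arrays above the floor gave 34, 1 (Plin4) and 1. No further scaling gave 151 genes and 2 of the 10 (Lpl and Plin4). A floor 2 times as high gave 209 genes, 4 of the 10 and 1 of the related genes (Vldlr). Trend and robust moderation gave 241 genes, 6 of the 10 (adding Adipoq, Fabp4 and Lipe), 9 probes and 2 related genes (Adipor2 and Rarres2). Averaged probes gave 211 genes, 3 of the 10 (Adipoq, Lpl and Plin4) and 1 related gene (Irs1). With the replicate block 0 genes, 0 of the 10 and 0 probes passed. At an unadjusted p under 0.05 in limma 8 of the 10 stayed lower, as did 1393 of all 23509 genes. Same-numbered samples share only a number (correlation of deviations 0.012). Leaving out any 1 array leaves a lone array in a group, assumed to vary like the other group, so only sizes are given. The median log2 difference of the 10 then ran from -2.92 to -2.27. Cidec ranged between -0.74 and 0.54, above 0 without Control replicate 1. In these table alternatives the other 9 genes were lower in Wnt3A throughout.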
